A study of Mus musculus with 24 samples.

Results

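The microRNA (miRNA) family miR-181 was examined in the neonatal mouse brain after hypoxic-ischemic brain injury (HIBI). Its members were 7 mature miRNAs chosen by name, mmu-miR-181a-5p, mmu-miR-181a-1-3p, mmu-miR-181a-2-3p, mmu-miR-181b-5p, mmu-miR-181c-5p, mmu-miR-181c-3p, and mmu-miR-181d-5p, out of 1531 mouse entries in the miRNA-Seq tables. CD1 pups of both sexes were operated on at postnatal day 9. The 4 HIBI pups had the right common carotid artery cauterized, recovered for 2 h, and then spent 30 min at 8% oxygen. The 4 sham pups had the same anesthesia and dissection with no ligation, and were kept in room air away from the dam. RNA came from the right cerebellum, the right striatum/thalamus, and the right cortex of every pup, 30 min after injury, which gave 24 libraries. The model joins carotid ligation with hypoxia, so that the forebrain on the ligated side has both insults while the cerebellum has mainly the hypoxia, and the effects of surgery and of low oxygen cannot be told apart within a region.

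A miRNA is cut from a hairpin precursor, and either arm of the hairpin (5p or 3p) can be loaded into a silencing complex, where bases 2 to 8, the seed, select the target mRNAs. The strand that is mostly kept is called the guide and the other the passenger. The miR-181 family is abundant in brain and in immune cells. In cell culture and adult stroke models its guides are known to repress the endoplasmic reticulum chaperone Hspa5 (GRP78) and members of the Bcl-2 family, and blocking miR-181a reduces ischemic injury in such models.

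The sequences below are the RefSeq entries of GRCm38.p6, written 5′ to 3′ with the seed in capitals. The 4 guides are shown first, because a shared seed is what makes them 1 family.
mmu-miR-181a-5p: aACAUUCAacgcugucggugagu
mmu-miR-181b-5p: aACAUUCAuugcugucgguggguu
mmu-miR-181c-5p: aACAUUCAaccugucggugagu
mmu-miR-181d-5p: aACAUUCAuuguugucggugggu

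All 4 guides had the seed ACAUUCA, and no other mature mouse miRNA in the RefSeq table had it. With positions counted from 1 at the 5′ end, mmu-miR-181b-5p differed from mmu-miR-181a-5p by A9U, C10U, and A21G and by 1 more base at the 3′ end. The sequence of mmu-miR-181d-5p differed from that of mmu-miR-181b-5p by C12U alone, apart from 1 base fewer at the 3′ end. The sequence of mmu-miR-181c-5p was that of mmu-miR-181a-5p with the base at position 11 missing. Reads of such close sequences could have been assigned to one another in the counting, so the sum of the 4 guides is given beside them.

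The 3p arms are shown because, unlike mmu-miR-181a-5p and mmu-miR-181b-5p, they differ between the hairpins they come from.
mmu-miR-181a-1-3p: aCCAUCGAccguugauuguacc
mmu-miR-181a-2-3p: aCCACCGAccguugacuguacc
mmu-miR-181c-3p: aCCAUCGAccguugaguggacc

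The arms mmu-miR-181a-1-3p and mmu-miR-181a-2-3p differed by U5C, which lies in the seed, and by U16C. The seed CCAUCGA was shared by mmu-miR-181a-1-3p and mmu-miR-181c-3p, which differed by U16G and U19G. The family is encoded by 3 pairs of hairpins. In GRCm38 with the GENCODE M21 annotation, Mir181a-1 is at chr1:137966455-137966541 and Mir181b-1 at chr1:137966639-137966718, both on the plus strand in an exon of the lincRNA A430106G13Rik. Mir181a-2 is at chr2:38852735-38852810 and Mir181b-2 at chr2:38853830-38853918, on the plus strand inside an intron of Nr6a1, which is on the opposite strand. Mir181c is at chr8:84178873-84178961 and Mir181d at chr8:84178716-84178787, on the minus strand in an intron of Nanos3, on the same strand. The 2 copies of miR-181a on chromosomes 1 and 2 give the same mmu-miR-181a-5p, and likewise for mmu-miR-181b-5p, so the counts of these guides hold both loci together.

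Each library had between 1254185 and 3406624 counts on mouse miRNAs. The neuronal miRNAs fixed as a label check (miR-124-3p, miR-128-3p, both miR-9 arms, and miR-137-3p) were all present in every group, and summed to between 82368 and 235380 CPM (counts scaled to the size of the library). The 7 members held between 2.04% and 7.11% of the counts of a library. The median share was 6.68% in the sham and 6.00% in the HIBI cerebellum, 4.85% and 4.87% in the cortex, and 2.30% and 2.31% in the striatum/thalamus.

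The family was dominated by 1 guide. Over the 24 libraries mmu-miR-181a-5p had 1909933 reads, mmu-miR-181b-5p 399263, mmu-miR-181d-5p 42065, mmu-miR-181a-1-3p 26781, mmu-miR-181c-5p 23783, and mmu-miR-181c-3p 5825. By mean CPM mmu-miR-181a-5p ranked 5 of all mouse entries in the cerebellum, 8 in the cortex, and 13 in the striatum/thalamus, whereas mmu-miR-181c-3p ranked between 206 and 254. Read shares of different miRNAs are not molar amounts, since ligation and amplification can favor some sequences.

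The remaining member, mmu-miR-181a-2-3p, was close to absent. It had 12 reads in all, 0 to 6 in a library, and 19 libraries had none. Of the 26793 reads on the 3p arms of the 2 miR-181a hairpins, it took 0.0448% (95% exact binomial interval 0.0231% to 0.0782%, counting error only). A count of 0 allows up to 3 counts, which was 0.881 to 2.39 CPM in these libraries, so no difference between groups or regions could be read from it. It did not pass the minimum of an average above 10 CPM in any region, and 6 of the 7 members were tested.

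Whether the family changed with injury was tested in each region with edgeR's quasi-likelihood test. In no region did any of the 6 members pass, either by the study's criteria (fold change above 1.5 with an unadjusted p-value under 0.05) or by a Benjamini-Hochberg adjusted p-value under 0.05. None had HIBI and sham libraries that did not overlap. Of the 434 miRNAs tested in the cerebellum, 7.83% met these criteria, 0% had an adjusted p-value under 0.05, and 3.69% had groups that did not overlap. In the striatum/thalamus these shares were 2.75%, 0%, and 2.29% of 436 miRNAs, and in the cortex 3.41%, 0.244%, and 4.15% of 410. Without adjustment, 44, 14, and 19 miRNAs had a p-value under 0.05 in the 3 regions, and 0 of the members.

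**Figure D1:**
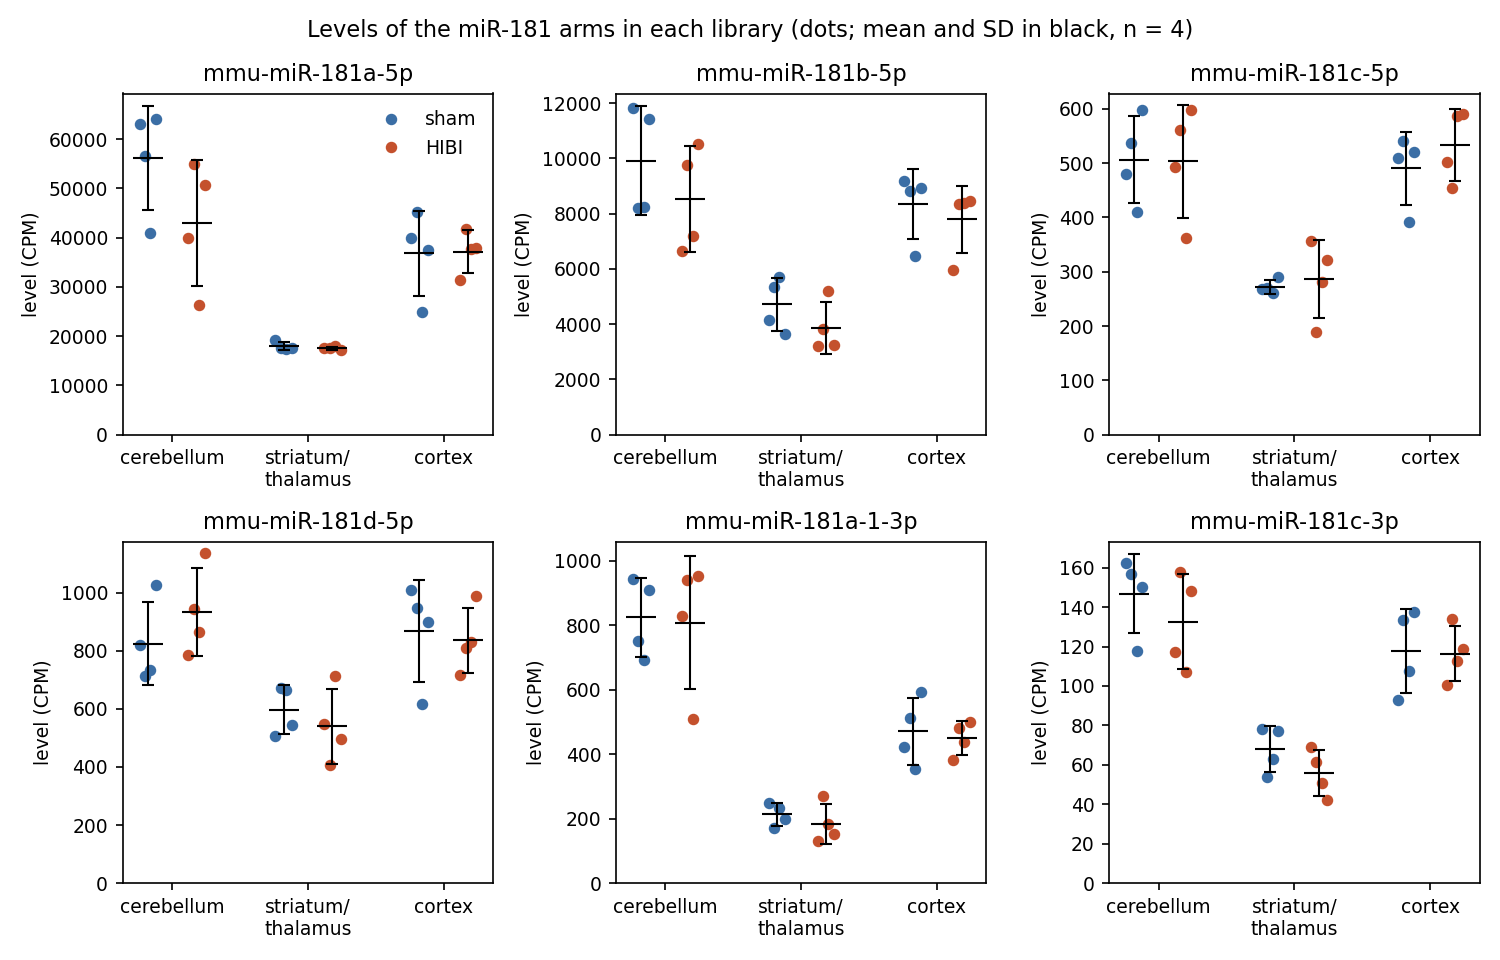
Level of the 6 tested miR-181 arms in CPM (vertical axes, from 0) in the cerebellum, striatum/thalamus, and cortex, with 1 dot for each library, sham in blue and HIBI in red, and the mean with its SD in black (n = 4). Blue and red dots overlap in every region and panel, and the dots of the striatum/thalamus are the lowest in each panel on average. The CPM shown are scaled within each region, so heights in different regions are not on a common scale. On the scale common to the 24 libraries each of the 6 arms was lowest in the striatum/thalamus in 8 of 8 pups. How many of all miRNAs had this order was not counted.

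The abundant guide mmu-miR-181a-5p had its largest difference in the cerebellum. Its level there was 63003, 56684, 40996, and 64028 CPM in sham pups 2, 3, 6, and 8, and 40015, 54909, 26287, and 50756 CPM in HIBI pups 1, 4, 5, and 7. HIBI pups 1 and 5 lay below every sham pup, but sham pup 6 lay below HIBI pups 4 and 7. The means were 56178 ± 10630 CPM in sham and 42992 ± 12783 CPM in HIBI (SD, n = 4), with a log2 fold change of -0.39 (SE 0.25, 95% interval -0.94 to 0.17, adjusted p = 0.478 by edgeR's quasi-likelihood test). The exact permutation test over the 70 arrangements of 4 against 4 pups, whose smallest possible p is 0.0286, gave p = 0.171. The summed erythrocyte miRNAs (4 of 4 present) also had a lower median in these HIBI libraries, with overlapping ranges of 595 to 798 CPM against 737 to 1340 CPM in sham. Medians of the oligodendrocyte, lymphocyte, skeletal muscle, and choroid plexus and ciliated epithelium sets were lower as well. Those of the neuronal, endothelial, mural, and myeloid sets were higher. The part of these markers in the result was not tested.

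In the striatum/thalamus mmu-miR-181a-5p hardly varied. Sham pups 2, 3, 6, and 8 had 19266, 17663, 17350, and 17652 CPM and HIBI pups 1, 4, 5, and 7 had 17640, 17634, 17928, and 17196 CPM. The log2 fold change was -0.03 (95% interval -0.34 to 0.28, adjusted p = 0.991 by edgeR). In the cortex the sham pups had 39905, 45210, 24893, and 37453 CPM and the HIBI pups 31363, 41744, 37682, and 37992 CPM. The log2 fold change was 0.01 (95% interval -0.39 to 0.41, adjusted p = 0.989 by edgeR). In both forebrain regions the pups of the 2 groups were interspersed. The injury effect on mmu-miR-181a-5p in the forebrain (mean of striatum/thalamus and cortex) minus that in the cerebellum was 0.45 on the log2 scale (SE 0.26, 95% interval -0.09 to 0.98, adjusted p = 0.373 in 1 edgeR model of the 24 libraries). By this test of the difference 0 of the 6 members and 0% of 435 miRNAs passed, and 70 of the 435 had an unadjusted p-value under 0.05.

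The second guide, mmu-miR-181b-5p, had 11836, 8190, 8235, and 11418 CPM in the cerebellum of sham pups 2, 3, 6, and 8 and 6636, 9774, 7184, and 10537 CPM in HIBI pups 1, 4, 5, and 7. The HIBI pups 1 and 5 were again the lowest of the 8, and the other two HIBI pups lay among the sham pups. The log2 fold change was -0.22 (SE 0.22, adjusted p = 0.604 by edgeR). In the striatum/thalamus it was -0.28 (SE 0.22, adjusted p = 0.980) and in the cortex -0.10 (SE 0.16, adjusted p = 0.976).

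The guides of the third hairpin pair were scarcer. For mmu-miR-181c-5p the cerebellum held 480, 538, 411, and 598 CPM in sham pups 2, 3, 6, and 8 and 493, 561, 361, and 598 CPM in HIBI pups 1, 4, 5, and 7. The 2 groups covered nearly the same range, and the log2 fold change was -0.01 (95% interval -0.49 to 0.47, adjusted p = 0.991 by edgeR). For mmu-miR-181d-5p the same pups had 820, 713, 735, and 1027 CPM in sham and 785, 942, 866, and 1138 CPM in HIBI. This was the only member of the 6 with a mean above sham in the HIBI cerebellum, at a log2 fold change of 0.18 (95% interval -0.27 to 0.63, adjusted p = 0.658 by edgeR).

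The passenger arm mmu-miR-181a-1-3p differed between HIBI and sham by log2 fold changes of -0.03 (cerebellum), -0.21 (striatum/thalamus), and -0.06 (cortex), and mmu-miR-181c-3p by -0.15, -0.29, and -0.02. Both were far from the threshold (adjusted p of 0.743 to 0.989 by edgeR). Over the 6 members the median log2 fold change was -0.09 in the cerebellum (0.11 over all miRNAs tested), -0.18 in the striatum/thalamus (-0.03 over all), and -0.04 in the cortex (-0.02 over all). The sum of the 4 guides, entered as a single feature, had log2 fold changes of -0.35 (SE 0.24, adjusted p = 0.507 by edgeR), -0.08 (SE 0.14), and -0.01 (SE 0.18) in the 3 regions.

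**Figure D2:**
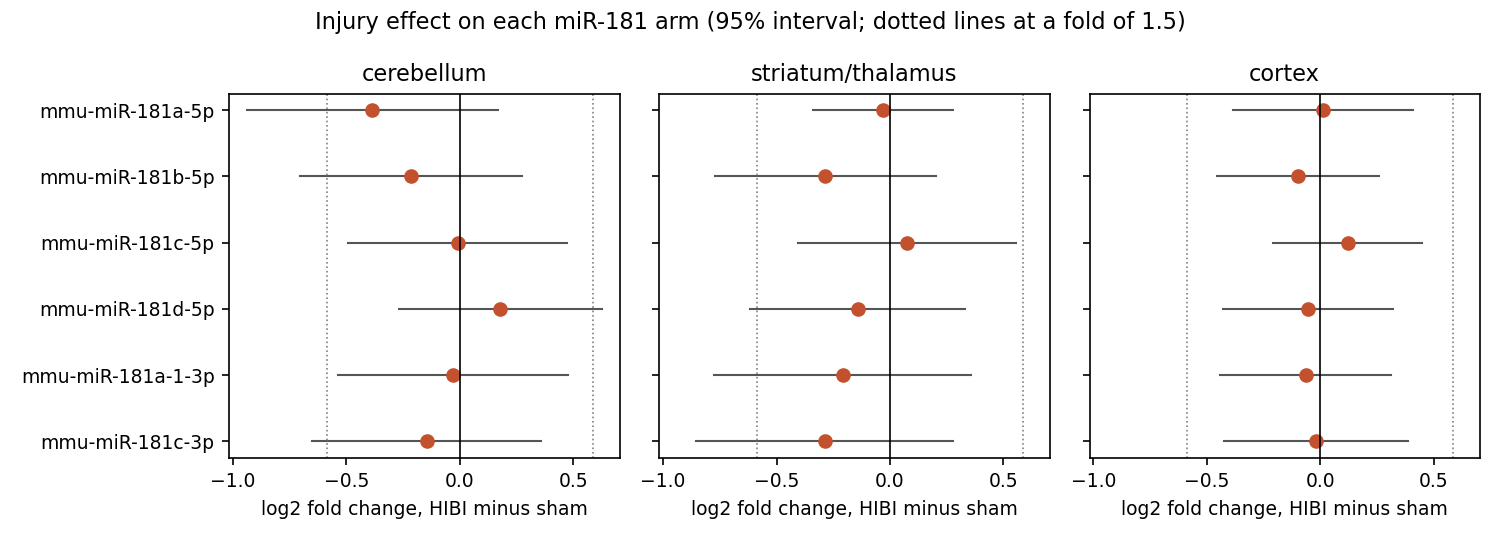
Log2 fold change of HIBI against sham (horizontal axes) for the 6 tested miR-181 arms in each region, with the 95% interval of edgeR's quasi-likelihood fit and dotted lines at a fold change of 1.5 either way. All 18 intervals include 0; in the cortex all 6 lie inside the dotted lines, against 2 of 6 in the cerebellum and 2 of 6 in the striatum/thalamus.

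A missed threshold does not show that the levels were the same, so the intervals were read against the study's fold criterion of 1.5 (0.58 on the log2 scale). Of the 18 intervals 10 lay inside it, namely all 6 in the cortex, those of mmu-miR-181a-1-3p and mmu-miR-181c-5p in the cerebellum, and those of mmu-miR-181a-5p and mmu-miR-181c-5p in the striatum/thalamus. In the other 8 a fold change of 1.5 in 1 direction was within the interval. Of a list of 20 miRNAs linked to ischemia in general (among them miR-21a-5p and miR-155-5p), the cerebellum test took 16, the striatum/thalamus test 17, and the cortex test 18. On the list, miR-210-3p and miR-29b-3p were tested in no region, so nothing is said of them here. The one that met the study's criteria was miR-200b-3p in the cortex, an epithelial miRNA of the miR-200 family, with a log2 fold change of -0.81 (SE 0.33, adjusted p = 0.826 by edgeR). Of all 410 miRNAs tested in the cortex, 3.41% met these criteria. The median log2 fold change of the list was 0.23, -0.18, and -0.10 in the 3 regions (0.11, -0.03, and -0.02 over all miRNAs tested).

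Differences between the brain regions were tested next, within sham and within HIBI pups. Each of the 6 members was lowest in the striatum/thalamus in 8 of 8 pups, on a scale common to the 24 libraries. For mmu-miR-181a-5p the 8 libraries had 16702 to 19140 CPM (median 17603) in the striatum/thalamus, 26125 to 47737 CPM (median 39095) in the cortex, and 25792 to 67285 CPM (median 50740) in the cerebellum. The striatum/thalamus did not overlap with either of the other regions. For mmu-miR-181a-1-3p the ranges were 132 to 294, 372 to 591, and 501 to 986 CPM in the same order, and mmu-miR-181b-5p had 3233 to 5502, 6205 to 9308, and 6162 to 12349 CPM. For these 3 members the striatum/thalamus was apart from both other regions, whereas cortex and cerebellum overlapped. The same held for mmu-miR-181c-3p, with 42.7 to 75.2 CPM in the striatum/thalamus, 91.0 to 141 CPM in the cortex, and 105 to 169 CPM in the cerebellum. The range of mmu-miR-181c-5p in the striatum/thalamus, 205 to 360 CPM, was apart from the cortex (410 to 616 CPM) but overlapped with the cerebellum (354 to 628 CPM). That of mmu-miR-181d-5p, 440 to 711 CPM, overlapped with both the cortex (646 to 1031 CPM) and the cerebellum (655 to 1108 CPM). How many of all miRNAs had such an order of regions or such separate ranges was not counted. The counts therefore do not show that the family is unusual in this. In bulk tissue, fewer cells that hold a miRNA and less of it per cell cannot be told apart.

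In sham pups all 6 members were lower in the striatum/thalamus than in the cerebellum at an adjusted p-value under 0.05 (edgeR, 1 model of the 24 libraries), against a background of 31% of 435 miRNAs lower in this contrast. Their median log2 difference was -1.15 (-0.10 over all miRNAs). The largest was that of mmu-miR-181a-1-3p, at -2.005 (SE 0.25, 4.01-fold lower, adjusted p = 4.61e-07). It was followed by mmu-miR-181a-5p at -1.70 (SE 0.22, 3.24-fold lower, adjusted p = 7.45e-07), mmu-miR-181c-3p at -1.16, mmu-miR-181b-5p at -1.13, and mmu-miR-181c-5p at -0.94. The smallest was that of mmu-miR-181d-5p, at -0.52 (SE 0.20, 1.43-fold lower, adjusted p = 0.0256), and it no longer passed without pup 2 (adjusted p = 0.132) or without pup 8 (adjusted p = 0.213), nor with scaling by library size alone (adjusted p = 0.0717) or without a minimum CPM (adjusted p = 0.155).

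Markers of other cell types differed between these regions as well. The summed oligodendrocyte miRNAs (2 of 2 present) were at 5242 to 7092 CPM in the sham cerebellum and 1839 to 4185 CPM in the sham striatum/thalamus, and in HIBI pups at 4798 to 8328 and 1047 to 2834 CPM. The summed skeletal muscle miRNAs (3 of 3 present) were at 447 to 602 and 52.9 to 141 CPM in sham pups, and at 346 to 652 and 39.3 to 85.6 CPM in HIBI pups. The lymphocyte miRNA went the other way. It was at 706 to 833 CPM in the sham cerebellum and 1228 to 1297 CPM in the sham striatum/thalamus. In HIBI pups it was at 606 to 799 and 846 to 1638 CPM. None of these markers was at 0 in a whole group, and for each the ranges of the regions did not overlap. Medians of the neuronal, endothelial, mural, myeloid, and choroid plexus and ciliated epithelium sets were also lower in the striatum/thalamus, in sham and in HIBI pups. That of the erythrocyte set was lower in sham pups only. The part of these markers in the result was not tested.

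The HIBI pups, which are different animals, gave the same contrast without sharing a library. There too 6 of 6 members were lower in the striatum/thalamus than in the cerebellum, against a background of 27.1%, with a median log2 difference of -1.13. The values were -2.05 for mmu-miR-181a-1-3p, -1.23 for mmu-miR-181a-5p, -1.19 for mmu-miR-181c-3p, -1.08 for mmu-miR-181b-5p, -0.75 for mmu-miR-181c-5p, and -0.73 for mmu-miR-181d-5p, with adjusted p-values between 4.57e-07 and 0.00317 (edgeR). The passenger mmu-miR-181a-1-3p stood first in both sets of pups. The smallest difference was that of mmu-miR-181d-5p in both, but in HIBI pups that of mmu-miR-181c-5p was close to it (-0.73 and -0.75).

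**Figure D3:**
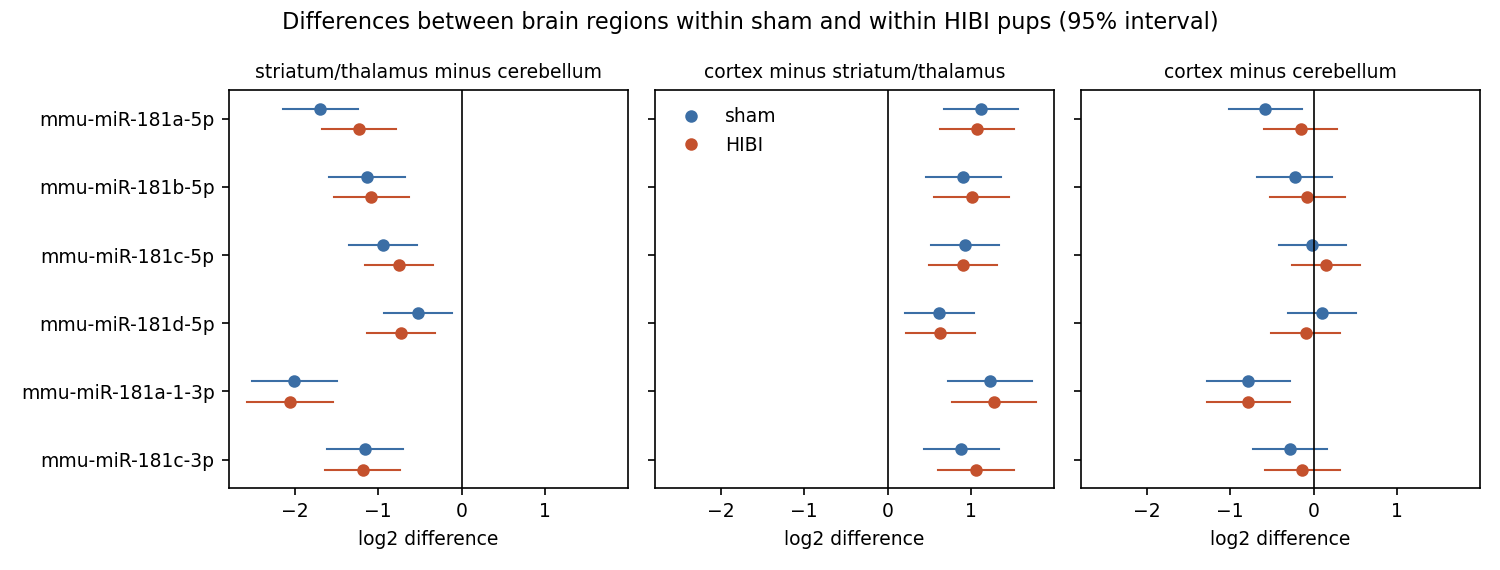
Log2 difference between 2 brain regions (horizontal axes) for the 6 tested miR-181 arms, in sham pups (blue) and in HIBI pups (red), with the 95% interval of the edgeR fit. Every interval of striatum/thalamus minus cerebellum lies below 0 and every interval of cortex minus striatum/thalamus above 0, while most of those of cortex minus cerebellum include 0.

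The cortex was higher than the striatum/thalamus for 6 of 6 members in sham pups and for 6 of 6 in HIBI pups, against backgrounds of 17% and 16.8% of miRNAs higher in these contrasts (edgeR, adjusted p-value under 0.05). The median log2 difference of the members was 0.92 in sham and 1.03 in HIBI. It ranged from 0.62 (mmu-miR-181d-5p, adjusted p = 0.0195) to 1.22 (mmu-miR-181a-1-3p, adjusted p = 0.000609) in sham, and from 0.63 (mmu-miR-181d-5p, adjusted p = 0.0173) to 1.27 (mmu-miR-181a-1-3p, adjusted p = 0.000582) in HIBI. In sham the call of mmu-miR-181d-5p was lost without pup 2 (adjusted p = 0.150), pup 3 (0.0599), or pup 8 (0.113), and that of mmu-miR-181c-3p without pup 3 (0.0565). In HIBI the call of mmu-miR-181d-5p was lost without pup 4 (0.0796) or pup 7 (0.133). In the forebrain the summed neuronal miRNAs moved the same way. They were at 189901 CPM or more in every cortex library but between 82368 and 163423 CPM in the striatum/thalamus. Medians of the endothelial, mural, and myeloid sets were also higher in the cortex, in sham and in HIBI pups. Those of the lymphocyte, oligodendrocyte, erythrocyte, and skeletal muscle sets were lower in both. That of the choroid plexus and ciliated epithelium set was higher in sham pups only. In sham pups the lymphocyte miRNA was at 580 to 822 CPM in the cortex and 1228 to 1297 CPM in the striatum/thalamus. The part of these markers in the result was not tested.

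Cortex and cerebellum differed for fewer members. In sham pups 2 of the 6 were lower in the cortex, against a background of 28.7% lower. These were mmu-miR-181a-1-3p, at -0.78 (SE 0.24, adjusted p = 0.00839 by edgeR), and mmu-miR-181a-5p, at -0.58 (SE 0.21, adjusted p = 0.0238). The first call was lost without pup 2 (adjusted p = 0.0797), and the second without pup 2 (0.111) or pup 8 (0.0655). Without a minimum CPM neither passed (0.0980 and 0.261). In HIBI pups 1 of the 6 was lower, against a background of 19.8%. It was mmu-miR-181a-1-3p, at -0.78 (SE 0.24, adjusted p = 0.0123), and its call was lost without pup 7 (0.0510). The value of mmu-miR-181a-5p in HIBI was -0.16 (SE 0.21, adjusted p = 0.565). The guides of the third hairpin pair were at -0.02 and 0.15 (mmu-miR-181c-5p, sham and HIBI) and 0.10 and -0.10 (mmu-miR-181d-5p), each within its SE of 0.20 or less. The highest region was the cerebellum in 8 of 8 pups for mmu-miR-181a-1-3p and in 7 of 8 for mmu-miR-181a-5p, and the cortex in 5 of 8 for mmu-miR-181c-5p.

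The sum of the 4 guides was 3.03-fold lower in the striatum/thalamus than in the cerebellum of sham pups (log2 difference -1.60, SE 0.21, adjusted p = 7.45e-07 by edgeR) and 2.33-fold lower in HIBI pups (-1.22, SE 0.20, adjusted p = 2.16e-05). The cortex was 2.10-fold and 2.09-fold higher than the striatum/thalamus (adjusted p = 0.000424 and 0.000500). For cortex minus cerebellum the sum was at -0.53 in sham pups (SE 0.20, adjusted p = 0.0276), a call lost without pup 1 (0.0741), pup 2 (0.155), pup 6 (0.0637), or pup 8 (0.0775), and at -0.16 in HIBI pups (adjusted p = 0.541). Moving reads between the guides cannot change this sum.

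Ratios of the arms within a library need no scaling between libraries, and were used to compare the members with one another. Reads of mmu-miR-181d-5p for each 100 of mmu-miR-181a-5p were 1.90 ± 0.65 in the cerebellum, 2.32 ± 0.23 in the cortex, and 3.20 ± 0.61 in the striatum/thalamus (SD, n = 8 pups). The ratio was higher in the striatum/thalamus than in the cerebellum and than in the cortex in 8 of 8 pups, with log2 differences of 0.80 (exact permutation p = 0.00171, adjusted over 18 tests 0.00615) and 0.45 (exact permutation p = 0.00155, adjusted 0.00615). The exact permutation tests of ratios between regions took the libraries as unpaired, with sham and HIBI pups together. An exact test within pups, which flips the signs of their differences, gave p = 0.00781 (adjusted 0.0234) for both of these contrasts. Reads of mmu-miR-181c-5p for each 100 of mmu-miR-181a-5p were 1.06 ± 0.19, 1.40 ± 0.20, and 1.57 ± 0.29 in the same order of regions. This ratio was lower in the cerebellum than in the cortex and than in the striatum/thalamus in 8 of 8 pups (log2 differences of 0.42 and 0.58, adjusted p = 0.0112 and 0.00615 by exact permutation). Sham and HIBI means were 0.911 and 1.20 in the cerebellum, 1.36 and 1.45 in the cortex, and 1.52 and 1.63 in the striatum/thalamus. For mmu-miR-181d-5p they were 1.49 and 2.30, 2.37 and 2.26, and 3.34 and 3.07. For both ratios the gap to the cerebellum was narrower in HIBI pups.

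**Figure D4:**
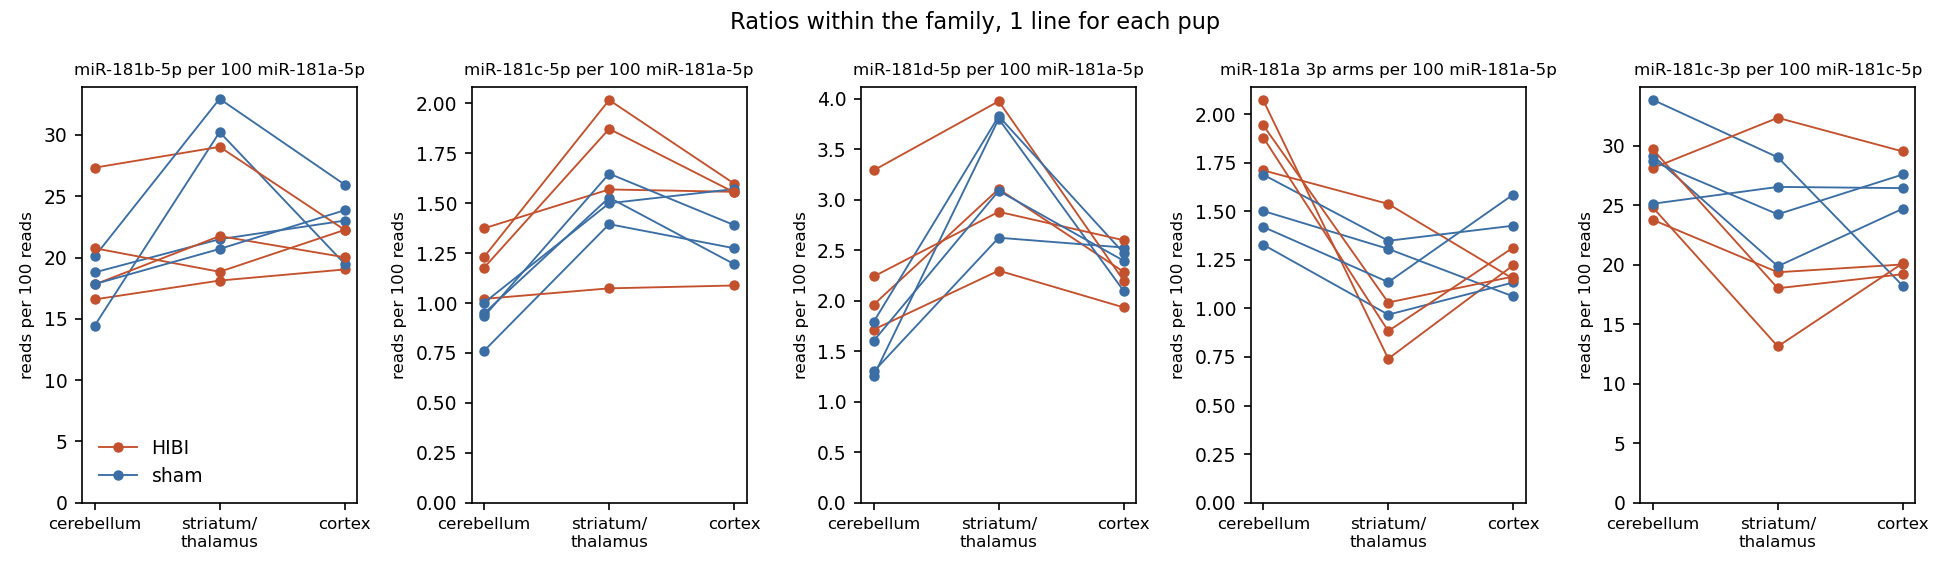
Reads of 1 arm for each 100 reads of another (vertical axes, from 0) in the 3 regions, with 1 line for each of the 8 pups, sham in blue and HIBI in red. The miR-181d-5p to miR-181a-5p and miR-181c-5p to miR-181a-5p ratios are lowest in the cerebellum on average (1.90 and 1.06 per 100), and the ratio of the miR-181a 3p arms is highest there (1.69 per 100).

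The ratio of mmu-miR-181b-5p to mmu-miR-181a-5p was 19.2 ± 3.8 per 100 in the cerebellum, 22.0 ± 2.4 in the cortex, and 24.1 ± 5.7 in the striatum/thalamus (SD, n = 8 pups). None of its 3 differences passed (adjusted p of 0.0860 to 0.439 by exact permutation). The 3p arms of miR-181a, nearly all of them mmu-miR-181a-1-3p, were 1.69 ± 0.26 per 100 of mmu-miR-181a-5p in the cerebellum, 1.26 ± 0.17 in the cortex, and 1.12 ± 0.27 in the striatum/thalamus. The sham and HIBI means were 1.48 and 1.90 in the cerebellum, 1.30 and 1.21 in the cortex, and 1.19 and 1.05 in the striatum/thalamus. The gap to the cerebellum was thus wider in HIBI pups. In sham pups the ranges of the cerebellum (1.33 to 1.69) and the cortex (1.06 to 1.59) overlapped. Over both groups together, the cerebellum was higher than the striatum/thalamus in 8 of 8 pups and higher than the cortex in 7 of 8 (adjusted p = 0.00615 and 0.00653 by exact permutation). Since mmu-miR-181a-5p comes from chromosomes 1 and 2 and mmu-miR-181a-1-3p from chromosome 1 alone, whether this is a difference between loci or between arms cannot be told apart in these counts. The ratio of mmu-miR-181c-3p to mmu-miR-181c-5p, 2 arms of a single hairpin, was 27.9 ± 3.3, 23.2 ± 4.3, and 22.8 ± 6.4 per 100 (adjusted p of 0.0591 to 0.770).

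With injury, 2 of the 18 ratio tests had the smallest p that 4 against 4 pups can give, 0.0286. A call after adjustment would have needed at least 11 of the 18 at that value, so that no call was made says nothing of any single ratio. Both were in the cerebellum, and both had mmu-miR-181a-5p as the denominator. For mmu-miR-181c-5p the ratio was 0.761, 0.949, 1.00, and 0.934 per 100 in sham pups 2, 3, 6, and 8 and 1.23, 1.02, 1.37, and 1.18 per 100 in HIBI pups 1, 4, 5, and 7, a log2 difference of 0.40 (exact permutation p = 0.0286, adjusted p = 0.257). For the 3p arms of miR-181a it was 1.501, 1.33, 1.69, and 1.42 per 100 in the sham pups and 2.07, 1.71, 1.94, and 1.88 per 100 in the HIBI pups, a log2 difference of 0.36 (exact permutation p = 0.0286, adjusted p = 0.257). Every HIBI pup was above every sham pup in both ratios, but the gap between the nearest pups was small, at 1.02 against 1.00 and 1.71 against 1.69. The ratio of mmu-miR-181d-5p had a log2 difference of 0.60 in the cerebellum (exact permutation p = 0.0571, adjusted p = 0.343). The 3 ratios share a denominator and are not separate results. In both forebrain regions the same 3 ratios had log2 differences between -0.22 and 0.08, with a smallest exact permutation p of 0.429.

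Further arms, 3 in number, of the family stood in the tables and are given for their place in the hairpins. The arm mmu-miR-181d-3p had 566 reads and mmu-miR-181b-2-3p 331, whereas mmu-miR-181b-1-3p had 3, so that of the 334 reads on the 3p arms of the 2 miR-181b hairpins 0.898% (95% exact binomial interval 0.186% to 2.60%) were on the chromosome 1 copy. This was the reverse of miR-181a, whose 3p reads were nearly all on the chromosome 1 copy. The 2 miR-181b 3p arms differ only by A9U and by 1 base at the 3′ end. Their reads could have been assigned to one another, and reads of a 3p arm do not measure how much each locus is used. The reads of mmu-miR-181b-2-3p were 5 to 50 in a cerebellum library, 0 to 15 in a cortex library, and 0 to 4 in a striatum/thalamus library, with 5 of 8 at 0. With the minimum lowered to an average of 1 CPM, its cortex level was below its cerebellum level in sham pups (log2 difference -2.01, SE 0.66, adjusted p = 0.0195 by edgeR over 727 miRNAs), and in HIBI pups this was -1.62 (adjusted p = 0.0906). Striatum/thalamus minus cerebellum was at -4.28 in sham and -5.84 in HIBI pups (adjusted p = 9.44e-05 and 5.35e-05 by edgeR). Cortex minus striatum/thalamus was at 2.27 and 4.22 (adjusted p = 0.0517 and 0.00818 by edgeR). These larger values rest on the 0 to 4 reads of a striatum/thalamus library. With injury in the cerebellum, where this arm passed the minimum of 10 CPM, its log2 fold change was -0.68 (adjusted p = 0.478 by edgeR). For mmu-miR-181d-3p no region contrast passed (adjusted p of 0.321 to 0.765).

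The members varied together across libraries, as a description over 24 libraries that share regions and pups. Pearson's r of log2(CPM + 1) with mmu-miR-181a-5p was 0.93 for mmu-miR-181a-1-3p, 0.92 for mmu-miR-181c-3p, 0.91 for mmu-miR-181b-5p, 0.88 for mmu-miR-181c-5p, and 0.79 for mmu-miR-181d-5p. With the mean of each of the 6 groups removed, these became 0.72, 0.63, 0.64, 0.65, and 0.54. The closest pair was then mmu-miR-181b-5p with mmu-miR-181d-5p (r = 0.81), which are guides of different hairpin pairs and differ by C12U, so that reads assigned to the wrong one of them would also raise this value. The 2 arms of the miR-181c hairpin had r = 0.35, and mmu-miR-181c-3p with mmu-miR-181d-5p had r = 0.12.

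Outside the family, the 5 miRNAs whose levels were most like those of mmu-miR-181a-5p over the 24 libraries were mmu-miR-30d-5p (r = 0.95), mmu-miR-99a-5p (0.93), mmu-let-7i-3p (0.92), mmu-miR-124-5p (0.91), and mmu-miR-151-5p (0.90), out of 435 miRNAs with an average above 10 CPM. Within groups the order was mmu-miR-30d-5p (0.80), mmu-miR-124-5p (0.75), mmu-miR-99a-5p (0.73), mmu-miR-532-5p (0.70), and mmu-miR-17-3p (0.69). For mmu-miR-181c-5p the nearest were mmu-miR-99a-5p (0.85), mmu-miR-3074-5p (0.81), mmu-miR-22-3p (0.80), mmu-miR-27b-3p (0.80), and mmu-miR-30a-5p (0.78). Within groups they were mmu-miR-28a-3p (0.65), mmu-miR-5099 (0.62), mmu-miR-30b-3p (0.58), mmu-miR-99a-5p (0.55), and mmu-miR-125b-2-3p (0.54). Only mmu-miR-99a-5p was in all 4 of these lists.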

How the data were processed

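The authors aligned miRNA-Seq reads (200 ng of RNA per library) with bowtie2 to mature mouse miRNAs of miRBase and deposited whole-number read counts per miRNA, not normalized. The miRBase release and the rule for reads matching several miRNAs are not given in the sources used here. The deposited tables also hold the authors' own edgeR comparison (log2 fold change, average log2 CPM, p-value, and false discovery rate), which was not used. The 20 castor bean entries (0.000156% of counts) were left out. No pair of replicates agreed within sampling noise (chi-square per degree of freedom of at least 31.0 in 36 pairs).

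In R 4.3.3 with edgeR 4.0.16, libraries were scaled by TMM, and miRNAs with an average above 10 CPM were tested with the quasi-likelihood test, within a region (8 libraries) or in 1 model of 24 libraries, with Benjamini-Hochberg adjustment over all miRNAs tested. CPM given by pup were scaled within a region. Exact permutation tests were two-sided. For ratios 0.5 was added to each count before the log2. The fits were tested on simulated data, and DESeq2 1.42.0 was an alternative. The regions of 1 pup come from the same animal, which pairs the samples: the deviations of same-numbered pups had a median r of 0.16, 0.27, and 0.19 for the 3 pairs of regions. Pups are separate animals, 1 library per region. Intervals on read shares cover counting error only. The members, the lists, and the miRNAs named (the members, the other family arms, the ischemia-linked miRNAs that passed, and the 5 closest in pattern) were chosen with earlier results of these data known.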

Additional observations from a re-analysis of the deposited data

Results flagged for a closer look

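Among 41 sets of 4 libraries examined for a library apart from the other three (a gap to the nearest library past the 95% critical value of Dixon's test), 8 had one. In 5 of them, all sets of mmu-miR-181a-2-3p, a single library held the few reads, so that the gap equals the range by construction. Of the other 36 sets 3 had one, where chance alone gives about 1 set in 20. For mmu-miR-181b-5p in the cortex, sham pup 6 had 6461 CPM against 8816 to 9182 CPM in the others, and HIBI pup 1 had 5967 CPM against 8358 to 8453 CPM. For mmu-miR-181a-5p in the striatum/thalamus, sham pup 2 had 19266 CPM against 17350 to 17663 CPM. The 5 sets of mmu-miR-181a-2-3p were sham pup 2 at 0.833 CPM in the cerebellum and 3.66 CPM in the striatum/thalamus, HIBI pup 1 at 0.703 CPM in the striatum/thalamus and 0.534 CPM in the cortex, and sham pup 8 at 0.842 CPM in the cortex. All but 1 of these 5 lie under the limit that a count of 0 allows.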

How the results depend on the processing

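Pooled over the 3 region contrasts, 14 calls of members in sham and 13 in HIBI pups, the numbers stayed within 1.5 times under library size scaling, DESeq2, an average above 1 CPM, no minimum, and each pup left out. For single contrasts they did not: in sham cortex minus cerebellum 2 calls became 0 with no minimum and without pup 2, and 1 without pup 8, and in HIBI cortex minus cerebellum 1 call became 0 without pup 7. With injury 0 members met the criteria under any of these, the edgeR exact test, or 1 model of all libraries. Pup as a replicate block left 14 region calls in sham, 13 in HIBI, and 0 for the injury difference, and 5 for the summed guides. The within-pup test of ratios gave 6 region calls, as did the main test, leaving aside the ratio of the 2 miR-181a 3p arms, which rests on 12 reads. Leaving out a pup gave 6 to 9; the injury ratios, with 4 against 4 pups and more so with 4 against 3, could hardly pass after adjustment, so those tests say nothing of stability.

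Library size scaling moved the median of all miRNAs by 0.16 (log2) for injury in the cerebellum, by -0.19 for the injury difference, and by -0.14 and -0.11 for cortex and striatum/thalamus minus cerebellum in HIBI pups. The log2 fold change of mmu-miR-181a-5p in the cerebellum ranged from -0.55 to -0.21 (adjusted p from 0.277 to 0.836). Values close to 0 changed sign, none past the threshold. With library size scaling these were, for injury, mmu-miR-181a-1-3p (0.14), mmu-miR-181c-3p (0.016), and mmu-miR-181c-5p (0.15) in the cerebellum, mmu-miR-181a-5p (0.027) in the striatum/thalamus, and mmu-miR-181c-3p (0.00038) and the summed guides (0.0097) in the cortex. With DESeq2 mmu-miR-181a-5p in the striatum/thalamus was 0.013 and the summed guides in the cortex 0.0059. In 1 model of all libraries the former was 0.059, and without a minimum mmu-miR-181c-3p in the cortex was 0.023. The sham cortex minus cerebellum value of mmu-miR-181c-5p became 0.025 (library size), 0.029 (DESeq2), 0.037 (above 1 CPM), and 0.14 (no minimum).

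With each pup left out, the injury values that changed sign ranged, in the cerebellum, from -0.14 to 0.14 (mmu-miR-181a-1-3p) and -0.13 to 0.12 (mmu-miR-181c-5p). In the striatum/thalamus they ranged from -0.39 to 0.019 (mmu-miR-181a-1-3p), -0.039 to 0.069 (mmu-miR-181a-5p), -0.30 to 0.034 (mmu-miR-181d-5p), and -0.12 to 0.032 (summed guides). In the cortex they ranged from -0.16 to 0.069 (mmu-miR-181a-1-3p), -0.12 to 0.16 (mmu-miR-181a-5p), -0.18 to 0.017 (mmu-miR-181b-5p), -0.12 to 0.086 (mmu-miR-181c-3p), -0.16 to 0.032 (mmu-miR-181d-5p), and -0.11 to 0.084 (summed guides). For cortex minus cerebellum the ranges were -0.21 to 0.0079 (mmu-miR-181b-5p, HIBI), -0.045 to 0.32 (mmu-miR-181c-5p, HIBI), and -0.051 to 0.012 (mmu-miR-181c-5p, sham). Ratios ranged from -0.18 to 0.017 (miR-181a 3p arms, injury, cortex), -0.027 to 0.16 (mmu-miR-181c-3p, cortex minus striatum/thalamus), and -0.047 to 0.26 (mmu-miR-181c-5p, injury, striatum/thalamus).

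Over all miRNAs, 34 met the study's criteria in the cerebellum but 61 above 1 CPM, 106 without a minimum, and 18 to 82 with 1 pup left out. In the striatum/thalamus it was 12, against 21 (DESeq2), 19 (above 1 CPM), 54 (no minimum), 19 (1 model), and 5 to 38, and in the cortex 14, against 41 (above 1 CPM) and 86 (no minimum). The cause was not tested.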
